A study of Mus musculus with 4 samples.

Results

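Knockout clone 1 of MC38 cells was compared with the 2 control arrays of the same series, gene by gene, by the size of the difference. MC38 is a mouse colon adenocarcinoma cell line that grows as a transplanted tumour in mice. Members of the comparison are genes whose clone 1 signal lay at least 1 log2 unit, a 2-fold difference, above or below the mean of both controls. They number 1320 of 19505 measured genes. The 4 arrays hold wild-type MC38 cells (WT), MC38 cells that carry an empty vector (MOCK), and clones titled KO T5 clone 1 and KO T5 clone 2, in which Mgat5 was targeted with CRISPR-Cas9. No label gives a further treatment, time or allele, and each group is 1 array. Both knockout arrays are clones and neither control is titled as one, so loss of Mgat5 and descent from 1 cell cannot be told apart. Nothing in the labels says that the arrays came from separate cultures, and with 1 clone 1 array no test of a difference was made. All values are log2 signals after quantile normalization of the 4 arrays, which gives the arrays 1 shared distribution of signals. Differences are clone 1 minus the mean of MOCK and WT unless another array is named. Where 4 values follow a gene's name with no array named, they belong to MOCK, WT, clone 1 and clone 2, in that order.

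Mgat5 encodes N-acetylglucosaminyltransferase V, a Golgi enzyme that starts a particular branch on the N-glycans of secreted and cell-surface proteins. That branch is a favoured site for long lactosamine chains, which galectins bind, and it is known for raising the time that growth factor receptors and adhesion molecules spend at the surface of tumour cells. The folding of glycoproteins is watched over in the endoplasmic reticulum (ER), where chaperones and disulfide enzymes are raised by the XBP1, ATF6 and ATF4 branches of the unfolded protein response when folding fails.

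The labelled origin was set against marker genes first. A signal was counted as above background where it passed 6.45, the 75th percentile of the array's negative-control features on the same scale. All 9 colon epithelial markers measured, Epcam, Cdh1, Krt8, Krt18, Krt20, Vil1, Cdx2, Lgals4 and Muc2, stayed between 3.17 and 6.07 on every array, so the defining markers of colon epithelium were not above background in these cells. Endothelial markers (7) and B cell markers (4) were likewise at or below background on all 4 arrays, and Ptprc, Adgre1, Csf1r and Cd3e, which define immune cells, lay under 5 throughout. Of 8 macrophage markers, 2 were above background in MOCK and 1 on each of the other arrays; Cd14 was above it on all 4, at 7.85, 8.28, 7.36 and 6.80. Of 8 T and NK cell markers, 0 were above background in clone 1 and 1 on each of the other arrays. Of 8 fibroblast markers, 3 were above background in MOCK, WT and clone 2 and 4 in clone 1, with Pdgfrb at 11.41 for MOCK, 11.96 for WT and 11.57 for clone 1. The summed log2 signal of the fibroblast markers was 57.6 and 61.0 in the controls and 55.1 in clone 1. Dcn differed most among them, by -4.75, while 4 of the 8 had a difference above 0, so the lower sum is not shared by all markers. The sum for colon epithelial markers was 37.9 and 38.6 in the controls and 38.4 in clone 1. On the deposited scale, the upper quartile of signal ran from 8.87 in WT to 9.60 in clone 2, and the 99th percentile from 14.7 in WT to 15.9 in MOCK.

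Clone 1 was at least 1 log2 unit above the control mean for 746 genes, 3.82% of all genes, and at least as far below it for 574 genes, 2.94%. Every count of members in a gene list below is to be read against these 2 shares. At such shares a short list holds few members or none. List counts also include members for which clone 1 and the control mean were both at or below background. Of the higher genes, 593 (3.04% of all genes) also lay above all 3 other arrays, and 506 (2.59%) of the lower genes lay below all 3. Only part of this stands above background. The higher side of the comparison passed the background level for 448 of the higher genes and 303 of the lower genes, and both sides were at or below it for the remaining 569. Against the nearer of the 2 controls, 757 genes were at least 1 log2 unit away, and 320 were at least 1 log2 unit outside the range of all 3 other arrays. The controls themselves differ: MOCK and WT were at least 1 log2 unit apart for 855 genes, against 1732 for clone 1 and MOCK and 1706 for clone 1 and WT, and 143 members have controls that far apart. A difference of 2 log2 units was reached by 87 higher and 34 lower genes and a difference of 3 by 19 and 7.

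The balance of higher and lower genes depends on the scaling. Without quantile normalization, 1222 genes were higher and 418 lower, so the higher genes made up 74.5% of the calls against 56.5% in the main setting. The median over all genes was -0.02 after quantile normalization and 0.13 on the values as deposited, and 1102 of the 1320 members were at least 1 log2 unit off in the same direction on both. In clone 2, which is compared with the same 2 controls, 348 of the members were at least 1 log2 unit off the same way, 51 the other way, and 921 lay within 1 log2 unit of the control mean. Over all 19505 genes, clone 2 was at least 1 log2 unit off the control mean, in either direction, for 1926. The shared controls enter both differences, so this overlap is a description only.

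**Figure D1:**
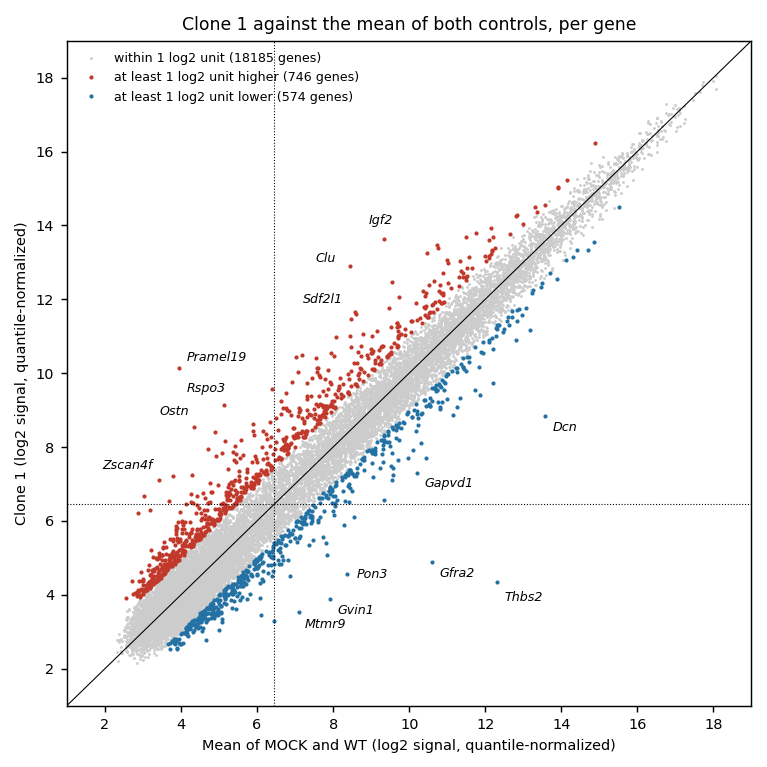
Each point is a gene, with the mean of MOCK and WT on the x axis and clone 1 on the y axis, both as quantile-normalized log2 signal. Red and blue mark the 746 higher and 574 lower genes and grey the rest, and dotted lines mark the background level of 6.45. Many coloured points lie in the lower left corner, where both sides are at or below background, and Thbs2, Gfra2 and Dcn lie farthest below the diagonal.

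The targeted gene itself was a weak member. Mgat5 signal was 8.23 for MOCK, 8.65 for WT, 7.37 for clone 1 and 7.30 for clone 2, a difference of -1.07 for clone 1. Both clones lay below both controls, yet the signal in the clones stayed above background, and on the values as deposited the difference was -0.77, short of 1 log2 unit. The sources used here do not say where the array's Mgat5 probes lie relative to the edited site, so this signal does not measure how much functional enzyme remained. Of 16 measured genes that trim or branch N-glycans, the only other member was Man1a, an alpha-mannosidase that trims the precursor before branching. Man1a was at 9.19 for MOCK, 9.12 for WT, 11.15 for clone 1 and 7.67 for clone 2. The controls sat together, clone 1 was 1.99 above them and clone 2 lay below them. Mgat1, which adds the first branch, was at 8.32, 8.51 and 7.61 in MOCK, WT and clone 1, and Mgat2, which adds the next, at 12.53, 12.74 and 12.22.

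Among 33 measured genes that extend or cap glycans, 5 were higher and 1 was lower. B4galt1, the galactosyltransferase that builds lactosamine, was at 11.57 for MOCK, 11.56 for WT, 13.14 for clone 1 and 12.47 for clone 2. Gcnt1, which starts the core branch of O-glycans, was at 6.78, 7.26, 8.35 and 8.83 in that order, and St3gal6, a sialyltransferase, at 11.11, 11.07, 12.29 and 11.92. For all 3 genes both clones lay above both controls. C1galt1, which makes the core of mucin-type O-glycans, differed by 1.02 and B4galt6, which makes lactosylceramide, by -1.56. None of the 9 measured galectins was a member, which is near the share over all genes for so short a list. Their median difference was 0.06.

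The genes farthest above the controls were led by secreted factors and by genes whose control signal was near the floor of the array. Clu encodes clusterin, a secreted chaperone. Its signal was 8.18 for MOCK, 8.71 for WT, 12.90 for clone 1 and 13.46 for clone 2, which put clone 1 4.46 above the control mean and clone 2 slightly higher still. Igf2, the gene for insulin-like growth factor 2, was at 10.09 for MOCK, 8.56 for WT, 13.64 for clone 1 and 6.06 for clone 2. Clone 1 was 19.9-fold above the controls and clone 2 below background, so the clones stood on opposite sides of the controls. Rspo3, an R-spondin that strengthens Wnt signals, was at 5.13, 5.12, 9.14 and 7.48. Ostn, which encodes the small secreted peptide osteocrin, was at 4.16, 4.50, 8.56 and 4.42. Both genes had control signals under the median of the negative controls, 5.18, so no fold is given for them or for the other genes whose lower side is that dim.

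Pramel19 showed the widest difference upward. It belongs to the PRAME-like family, whose members are mostly used in germ cells and early embryos, and its signal was 3.96 for MOCK, 3.94 for WT and 10.14 for clone 1, with clone 2 between them and 2.05 above the control mean. Only clone 1 was above background. The same held for Iqgap2, a scaffold for the cytoskeleton, at 3.46, 4.11, 7.21 and 4.77, and for the cadherin gene Cdh10 at 3.06, 3.01, 6.68 and 3.83. Ptprq, a receptor phosphatase gene, was above background in clone 1 alone as well, at 7.94 against 4.41 to 4.87 on the other arrays. Serpinb1a, an inhibitor of neutrophil proteases, was at 6.42 for MOCK, 6.34 for WT, 9.57 for clone 1 and 6.58 for clone 2. That is a 9.13-fold difference in clone 1, with the other 3 arrays lying together near background.

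Other genes high in clone 1 were high in clone 2 too. Car6, a secreted carbonic anhydrase, was at 7.45 for MOCK, 6.58 for WT, 10.44 for clone 1 and 9.43 for clone 2. Cox6a2, the muscle form of a subunit of cytochrome c oxidase, was at 8.42, 5.93, 10.49 and 10.42, with the 2 controls further apart than the 2 clones. Aqp1, a water channel, was at 8.53, 7.36, 10.54 and 10.48. Mme, the surface peptidase neprilysin, was at 7.40, 8.76, 10.97 and 10.28, and Abcg2, a drug efflux pump, at 6.69, 6.99, 8.97 and 9.05. In each of these 5 genes both clones lay above both controls. The same order held for Rgs2, which turns off G protein signals, at 5.50, 5.34, 8.03 and 7.63.

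**Figure D2:**
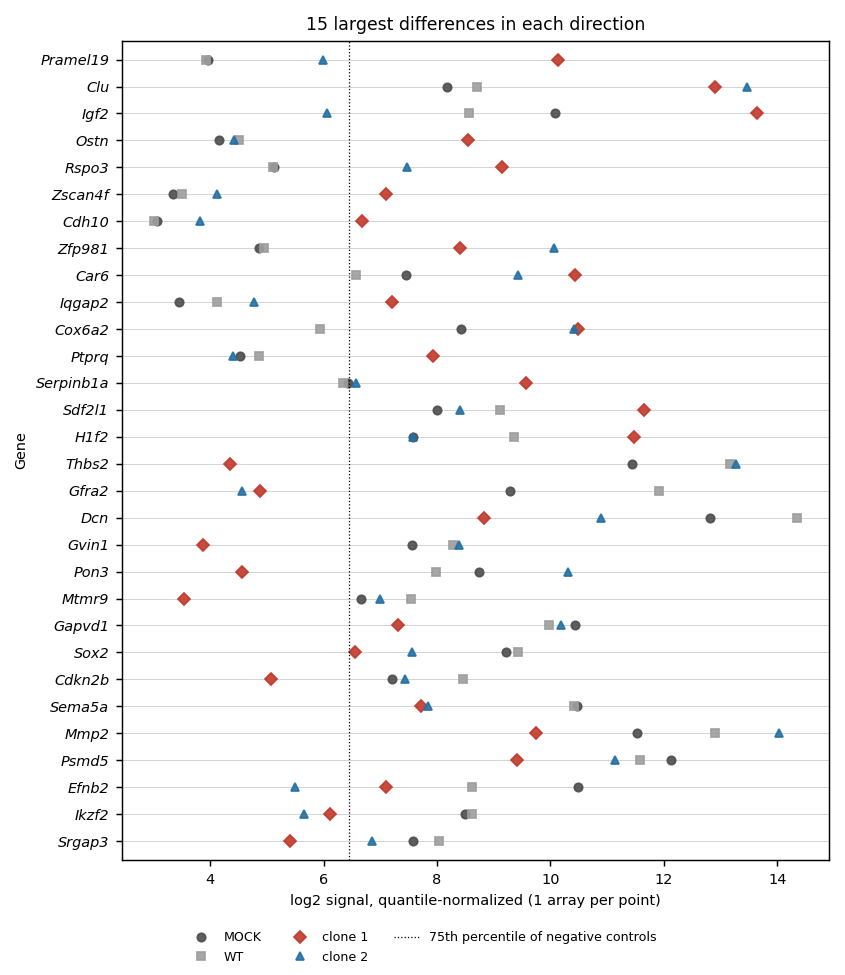
Quantile-normalized log2 signal (x axis, 1 array per point) of the genes above background that lay farthest from the control mean in clone 1, 15 per direction (y axis). Red diamonds are clone 1, blue triangles clone 2, and dark and light grey symbols MOCK and WT. Thbs2 was at 4.34 in clone 1 and at 11.43 or more on the other arrays, while Clu was high in both clones.

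The genes farthest below the controls included matrix proteins of the mesenchyme. Thbs2 encodes thrombospondin 2, a secreted matrix protein that restrains blood vessel growth. Its signal was 11.43 for MOCK, 13.17 for WT, 4.34 for clone 1 and 13.28 for clone 2. Clone 1 alone was below the negative-control median, and its gap of 7.09 to the nearest other array was the widest among the named genes. The other thrombospondins measured did not share this: Thbs1 was at 9.26 for MOCK, 11.02 for WT and 10.65 for clone 1, Thbs3 at 6.64, 6.61 and 7.71, and Thbs4 was below background on all arrays. Dcn, the gene for the collagen-binding proteoglycan decorin, was at 12.81 for MOCK, 14.35 for WT, 8.83 for clone 1 and 10.89 for clone 2. Clone 1 was 26.9-fold below the control mean, and clone 2 lay between clone 1 and the controls. The other small leucine-rich proteoglycans above background went the other way or stayed near the controls: Ogn was at 14.28, 15.46, 16.24 and 16.15 and Bgn at 6.76, 6.61, 7.99 and 7.87.

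Col6a1 and Col6a2, which encode chains of collagen VI, a beaded filament next to cells, were lower. Col6a1 was at 11.09 for MOCK, 11.43 for WT, 10.04 for clone 1 and 11.52 for clone 2. Col6a2 was at 10.54, 11.02, 9.69 and 11.12, so clone 1 was the lowest array for each and clone 2 the highest. On the values as deposited the differences were -0.88 for Col6a1 and -0.75 for Col6a2, short of 1 log2 unit. Of 29 measured collagen genes, 4 were at least 1 log2 unit lower, of which only Col6a1 and Col6a2 were above background. The 1 higher gene was Col1a2, with 5.06 for MOCK, 5.42 for WT, 6.92 for clone 1 and 4.97 for clone 2. The list's median was -0.20. Of 35 other matrix glycoprotein genes, 4 were lower and 2 higher, with a median of -0.13. Vcan, which encodes the large proteoglycan versican, was at 11.03, 11.26, 8.86 and 10.24. Fbln5, which helps to assemble elastic fibres, was at 8.75, 8.06, 6.51 and 8.63. In both, clone 1 was the lowest of the 4 arrays. Fbln1, a fibulin, was higher, at 7.92, 7.73, 9.12 and 8.25.

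Of 37 measured matrix proteases and their inhibitors, 6 were higher and 1 was lower. Among the higher ones only Plat and Adamts1 passed the background level in clone 1 or in the control mean. The lower one was Mmp2, gelatinase A, at 11.53 for MOCK, 12.90 for WT, 9.74 for clone 1 and 14.04 for clone 2. Here clone 1 was the lowest array and clone 2 the highest. Plat, tissue plasminogen activator, was at 4.95, 5.88, 7.10 and 8.21, and Adamts1, which cuts versican and other proteoglycans, at 10.18, 10.23, 11.45 and 10.78; both clones lay above both controls in each. Heparan sulfate genes gave 3 higher and 0 lower of 28, namely Agrn (agrin) with a difference of 1.47, Ext1 (chain polymerase) with 1.12 and Sulf2 (a sulfatase that edits the chains) with 1.08.

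**Figure D3:**
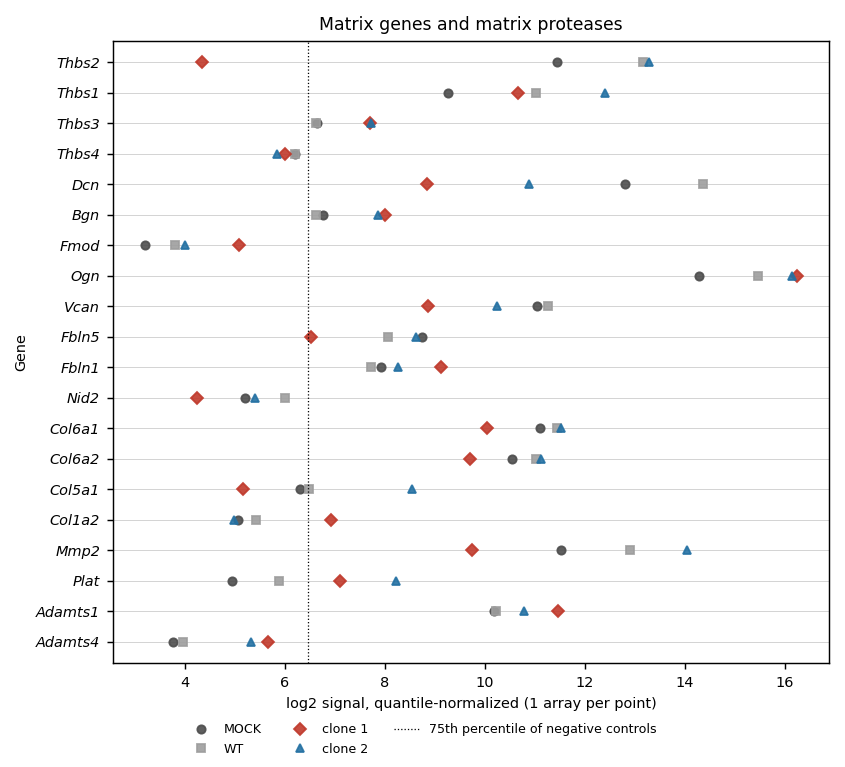
Quantile-normalized log2 signal (x axis, 1 array per point) of 20 matrix and matrix protease genes (y axis), with the dotted line at the background level of 6.45. Clone 1 (red) is the lowest of the 4 arrays for Thbs2, Dcn, Vcan, Fbln5, Nid2, Col6a1, Col6a2, Col5a1 and Mmp2, and it is the highest for Bgn, Ogn, Fmod, Fbln1, Col1a2, Adamts1 and Adamts4. Adamts4 was at 5.66 in clone 1, below the dotted line.

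Several other genes were far lower in clone 1. Gfra2, the co-receptor for neurturin, a growth factor of the GDNF family, was at 9.28 for MOCK, 11.92 for WT, 4.88 for clone 1 and 4.56 for clone 2. Neither clone was above background and both controls were. Sema5a, a guidance protein of the semaphorin family, was at 10.47, 10.42, 7.71 and 7.85, and Ikzf2, the transcription factor Helios, at 8.49, 8.61, 6.12 and 5.66. Sox2, a transcription factor of stem and progenitor cells, was at 9.22 for MOCK, 9.44 for WT, 6.55 for clone 1 and 7.56 for clone 2. Efnb2, the membrane-bound ligand ephrin-B2, was at 10.48, 8.62, 7.11 and 5.49. For these 5 genes both clones lay below both controls.

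A further set was low in clone 1 alone. Gvin1, a very large interferon-inducible GTPase, was at 7.56 for MOCK, 8.28 for WT, 3.87 for clone 1 and 8.38 for clone 2. Mtmr9, a pseudophosphatase of the myotubularin family, was at 6.66, 7.54, 3.54 and 6.99. Cdkn2b, the gene for the cell cycle inhibitor p15INK4b, was at 7.21, 8.45, 5.07 and 7.43. In all 3 genes clone 1 was below the negative-control median and the other 3 arrays were above background. Gvin1 has close relatives in the genome, and the sources used here do not say how its probes separate them. Pon3, a lactonase, was at 8.74, 7.98, 4.56 and 10.31, so the clones lay on opposite sides of the controls. Aim2, a sensor of DNA in the cytosol, was at 7.35, 7.39, 5.36 and 8.27.

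Genes of ER protein folding were higher as a group by a modest amount. Of 26 measured ER chaperones and XBP1 or ATF6 targets, 5 were at least 1 log2 unit higher, 0 were lower and 23 had a difference above 0. The list's median was 0.55 in clone 1 and 0.01 in clone 2, against -0.02 over all genes in each; the 2 clones share their controls. The difference of MOCK and WT had a median of -0.25 over these genes, so WT was the control nearer to clone 1. The highest was Sdf2l1, a partner of the chaperone BiP, at 8.01 for MOCK, 9.12 for WT, 11.65 for clone 1 and 8.40 for clone 2. Creld2, a disulfide isomerase-like protein, was at 9.58, 9.86, 12.07 and 9.36. For both genes clone 1 stood at least 2 log2 units above each of the other 3 arrays. Ero1b, an oxidase that recharges disulfide isomerases, was at 6.23, 7.16, 8.22 and 7.57, and Derl1, part of the channel for degrading misfolded proteins, at 10.26, 10.56, 11.58 and 11.32. Hyou1, a large chaperone, fell just short of the threshold with 11.59, 11.47, 12.51 and 11.06.

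The main chaperone of the compartment did not go with them. Hspa5, which encodes BiP, was at 15.97 for MOCK, 16.08 for WT, 15.79 for clone 1 and 16.49 for clone 2, and Dnajc3, a co-chaperone of BiP, was at 9.91, 10.39, 9.71 and 11.25. Clone 1 was the lowest array for both. Values of the genes beside each of them are given with the chromosomes further on. Whether position bears on Hspa5 or Dnajc3 was not tested. Calr (calreticulin) differed by 0.52, Pdia6 (a disulfide isomerase) by 0.73, Pdia3 by 0.83 and Canx (calnexin) by 0.07.

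The promoters of some of these genes hold a known element through which ATF6 acts, the ER stress element. It was searched as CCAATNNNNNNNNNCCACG on both strands in the 300 bases from 250 before to 50 after each start site, in RefSeq promoters of GRCm38.p6. It was found in 10 of 22 promoters of the ER list (45.5%), in 28 of 15691 promoters of all measured genes (0.178%), and in 3 of 583 promoters of higher and 2 of 442 of lower genes. Sdf2l1 was not among the genes with a match. A match is a description of the letters only. The windows below are shown because genes with the same element differ in clone 1: Creld2 and Ero1b at 2.34 and 1.53, Pdia6 and Calr between 0.5 and 0.8, Hspa5 and Dnajc3 below 0. Capitals mark the element, and each sequence reads 5′ to 3′ along the gene's strand.
Creld2 (chr15:88819500-88819558, plus strand, element on the opposite strand): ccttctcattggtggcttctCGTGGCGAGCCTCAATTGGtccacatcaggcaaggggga
Ero1b (chr13:12565662-12565720, plus strand, element on the opposite strand): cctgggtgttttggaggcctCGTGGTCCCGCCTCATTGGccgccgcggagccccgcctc
Pdia6 (chr12:17266471-17266529, plus strand): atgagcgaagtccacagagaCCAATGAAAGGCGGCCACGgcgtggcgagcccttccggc
Calr (chr8:84847055-84847113, minus strand, element on the opposite strand): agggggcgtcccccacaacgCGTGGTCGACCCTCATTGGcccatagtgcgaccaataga
Hspa5 (chr2:34772005-34772063, plus strand): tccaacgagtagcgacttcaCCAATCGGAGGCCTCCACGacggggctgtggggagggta
Dnajc3 (chr14:118937807-118937865, plus strand): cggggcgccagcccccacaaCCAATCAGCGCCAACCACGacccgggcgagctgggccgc
The element ends 46 bases before the start site in Hspa5 and 182 bases before it in Ero1b, with the others in between.

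Genes of the ATF4 and CHOP branch, which answers amino acid shortage and ER stress, were higher by a like amount. Of 25 measured, 4 were at least 1 log2 unit higher, 0 were lower and 22 had a difference above 0, with a median of 0.54 in clone 1 and 0.73 in clone 2. Chac1, an enzyme that breaks down glutathione, was at 8.16 for MOCK, 7.16 for WT, 9.88 for clone 1 and 10.19 for clone 2. Nupr1, a stress-induced nuclear protein, was at 10.25, 10.56, 11.76 and 14.13, and Pck2, the mitochondrial form of PEPCK, at 9.89, 9.03, 10.52 and 10.54. Both clones lay above both controls for the 3 genes. Ppp1r15a (GADD34) was higher by 1.31 with its clone 1 signal, 5.39, still below background. Trib3, Ddit3 (CHOP) and Atf4 differed by 0.93, 0.74 and 0.65. MOCK was above WT by a median of 0.27 over this list, so the controls' own difference is part of the spread here.

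**Figure D4:**
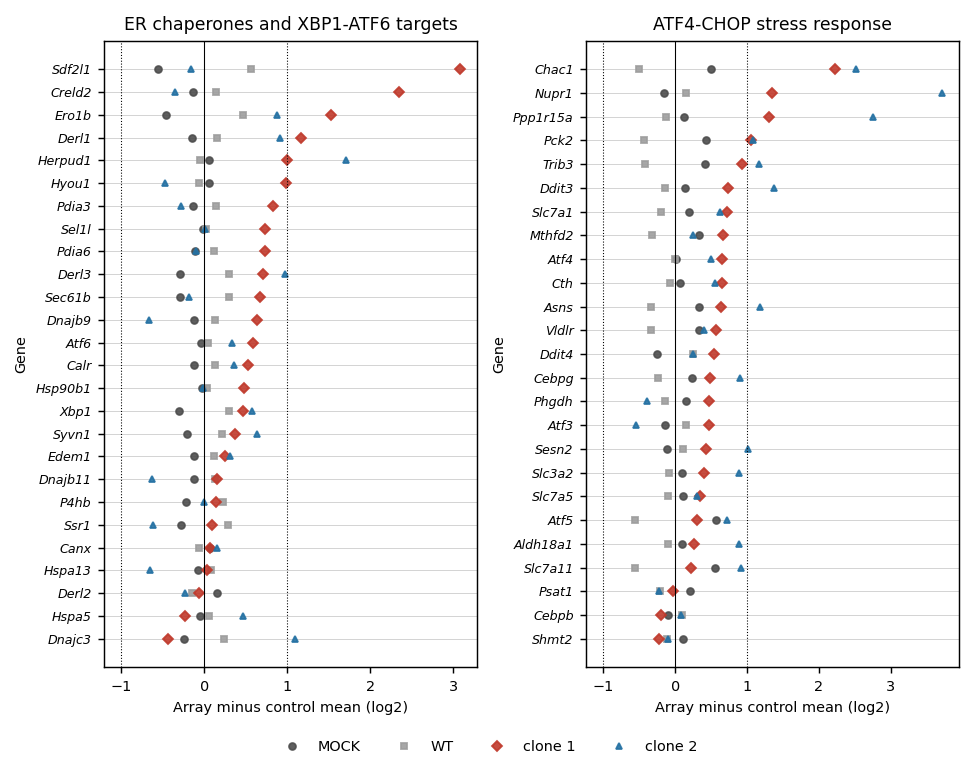
For each gene of the ER list (left) and the ATF4-CHOP list (right), the x axis gives each array's quantile-normalized log2 signal minus the mean of MOCK and WT, and dotted lines mark 1 log2 unit. Sdf2l1 and Creld2 stand apart in clone 1 (red diamonds) but not in clone 2 (blue triangles), while Nupr1 and Ppp1r15a are farther from the controls in clone 2.

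Growth control genes split. Cdkn1a, the cell cycle inhibitor p21, was at 10.46 for MOCK, 10.55 for WT, 12.40 for clone 1 and 12.70 for clone 2, high in both clones. Tnfrsf10b, a death receptor for TRAIL, was at 10.98, 10.62, 9.04 and 10.63, low in clone 1 alone. Over 24 measured p53 targets and CDK inhibitors, 1 was higher and 4 were lower with a median of -0.25, and Cdkn2b was among the lower ones. None of 30 mitosis and replication genes was a member.

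Immediate early genes and feedback inhibitors of ERK signalling held members in both directions, 4 higher and 5 lower of 37, with a median of 0.04. Dusp4, a phosphatase that turns off ERK, was at 5.24 for MOCK, 5.08 for WT, 8.17 for clone 1 and 5.94 for clone 2. Spry2, another brake on receptor signals, was at 7.96, 8.06, 6.15 and 8.11. Phlda1, a pleckstrin-like protein, was at 9.77, 10.15, 7.72 and 9.96, and Klf6, a zinc finger transcription factor, at 11.85, 11.82, 10.16 and 11.73. In these 4 genes the controls and clone 2 lay together and clone 1 apart. Fosb was at 8.99, 10.31, 8.23 and 7.86 and Fos at 8.82, 11.35, 8.81 and 8.25, where WT is the array that stands out. Lif and Cxcl1, secreted signals often induced with them, were lower in clone 1: Lif was at 9.30, 9.83, 7.44 and 11.54 and Cxcl1, a neutrophil chemokine, at 10.59, 11.15, 9.21 and 10.58.

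Of 32 measured type I interferon response genes, 4 were higher and 1 was lower in clone 1, with a median of -0.08, against a median of 2.54 in clone 2 over the same controls. Rsad2 (viperin) was at 7.89 for MOCK, 7.38 for WT, 8.66 for clone 1 and 12.13 for clone 2. Ddx58, the RNA sensor RIG-I, was at 11.53, 11.75, 12.84 and 14.31; it lies on chromosome 4 inside the higher stretch described below. Irf7, a transcription factor of the response, was at 3.19, 5.06, 6.46 and 5.14, with the controls further apart from each other than WT was from clone 1. None of 17 genes of MHC class I presentation was a member, which is near the share over all genes for a list of that size. Their median was 0.10. Nectin2, an adhesion molecule seen by NK cell receptors, was at 7.18, 7.89, 8.88 and 7.11, and Nfkb2, an NF-kB subunit, at 10.71, 10.39, 9.34 and 11.22, as the sole member of 20 NF-kB genes.

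Receptors and ligands of growth pathways gave scattered members rather than shifted lists. Among 18 genes of the insulin-like growth factor system, Igf2 was joined by Igfbp4, at 10.37 for MOCK, 10.43 for WT, 11.80 for clone 1 and 11.06 for clone 2, and Igfbp7, at 10.60, 11.17, 12.11 and 10.23, both binding proteins. Irs1, the adaptor of the receptor, was lower, at 9.82, 11.06, 9.12 and 9.29. The list's median was 0.00. Among 38 receptor kinases, 4 were higher and 0 lower, with a median of -0.02. Only Epha7 and Flt1 of the higher ones were above background. Epha7, an ephrin receptor, was at 8.31, 6.94, 9.95 and 6.72, and Flt1, a VEGF receptor, at 6.80, 8.48, 9.39 and 7.42. For both, clone 1 was the highest array and the controls were over 1 log2 unit apart.

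In the TGF-beta and BMP system, 3 of 50 genes were higher and 2 lower, with a median of -0.18. Among these members only Bambi and Tgfbr1 were above background. Bambi, a decoy receptor of the pathway, was at 6.39 for MOCK, 6.34 for WT, 8.27 for clone 1 and 4.63 for clone 2. Tgfbr1, the type I receptor, was at 7.69, 7.95, 9.06 and 8.30. Of 51 Wnt pathway genes, Rspo3, Fzd2, Fzd9 and Tcf7l1 were higher and Fzd8 lower. Fzd9 did not pass the background level in clone 1 or in the control mean. Fzd2, a frizzled receptor, was at 10.28, 10.78, 11.62 and 10.61, and Fzd8 was at 7.67, 6.89, 5.92 and 6.56, below background in clone 1. Of 29 Notch pathway genes, 3 were higher and 1 lower. Only Jag1 and Lfng among these members were above background. Jag1, a Notch ligand, was at 7.96, 7.76, 9.56 and 9.77, with both clones above both controls. Bdnf, a neurotrophin, was at 7.18, 7.46, 9.29 and 6.74.

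Of 18 integrin genes, 2 were higher and 0 lower: Itga3 was at 7.01 for MOCK, 9.24 for WT, 9.53 for clone 1 and 7.12 for clone 2, and Itga6, a laminin receptor chain, at 8.90, 7.94, 9.83 and 8.85. WT came within 0.3 of clone 1 for Itga3, so that difference rests on MOCK. Of 37 cadherins and other adhesion molecules, 5 were higher and 1 lower, with a median of 0.18. Alcam, an adhesion molecule of activated leukocytes, differed by 1.92, and Jam3, a junction protein, was at 6.29, 6.18, 7.84 and 6.03. Of 37 axon guidance genes, 5 were higher and 4 lower, led by Efna3 at 8.20, 8.72, 10.07 and 7.38 on the higher side and by Sema5a and Efnb2 on the lower. None of 30 epithelial genes was a member, and of 19 mesenchymal genes only S100a4 was, at 16.01 for WT, 14.49 for clone 1 and 14.52 for clone 2, and against MOCK alone its difference was -0.51.

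Of 29 hypoxia and glycolysis genes, 1 was higher and 2 lower, with a median of -0.30. The higher one did not pass the background level. Pfkl, the liver form of phosphofructokinase, was at 12.29 for MOCK, 12.10 for WT, 10.64 for clone 1 and 10.58 for clone 2, and Bnip3, a mitophagy receptor, at 11.80, 11.34, 10.44 and 8.72. Both clones lay below both controls in each. Of 33 NRF2 and glutathione genes, 3 were higher and 1 lower; Nqo1, a quinone reductase, differed by 1.33 in clone 1 and 3.16 in clone 2. Lss, an enzyme of cholesterol synthesis, was the sole member of 26 lipid synthesis genes, at 13.28, 13.70, 12.44 and 11.79. Among 7 aldo-keto reductases of the Akr1c family, examined after their values were seen, 3 were higher. Akr1c18, which inactivates progesterone, was at 6.17, 6.16, 8.45 and 5.95, and Akr1c14 at 8.07, 7.37, 9.51 and 9.26, so the first was high in clone 1 alone and the other in both clones.

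Zscan4 genes, which mark a brief state of mouse embryonic cells akin to the embryo at genome activation, were higher in all 5 copies measured. This family was singled out after its values were seen. The differences ran from 1.52 to 3.67 with a median of 1.77. Zscan4f was at 3.34 for MOCK, 3.50 for WT, 7.09 for clone 1 and 4.12 for clone 2, Zscan4c at 4.90, 4.34, 6.63 and 4.64, and Zscan4a at 5.30, 5.20, 6.77 and 5.40. Clone 1 was the highest array for all 5, and Zscan4b and Zscan4d stayed below background even there, at 5.29 and 4.97. The copies are alike, so how far their probes tell them apart is open to question, and the following windows from RefSeq (GRCm38.p6) are shown for that likeness. The windows lie before the start site, so they do not show how alike the transcripts read by the probes are. Each is 100 bases ending in the TATA box and the GGG after it, on the gene's strand. Capitals mark bases that differ from Zscan4f.
Zscan4f (chr7:11397794-11397893, plus strand): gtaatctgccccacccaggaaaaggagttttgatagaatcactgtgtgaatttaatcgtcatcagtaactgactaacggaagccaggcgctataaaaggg
Zscan4c (chr7:11005601-11005700, plus strand): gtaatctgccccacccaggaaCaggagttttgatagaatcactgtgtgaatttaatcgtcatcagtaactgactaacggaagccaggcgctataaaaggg
Zscan4b (chr7:10905072-10905171, minus strand): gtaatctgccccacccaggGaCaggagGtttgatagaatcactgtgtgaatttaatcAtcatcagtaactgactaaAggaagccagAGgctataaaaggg
Zscan4d (chr7:11166204-11166303, minus strand): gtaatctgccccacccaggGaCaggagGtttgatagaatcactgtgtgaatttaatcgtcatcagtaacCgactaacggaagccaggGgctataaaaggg
Zscan4c differed at 1 of the 100 bases, Zscan4d at 5 and Zscan4b at 7.

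Zinc finger genes of a cluster on chromosome 4 were higher in both clones. This list was itself chosen in an earlier reading of these data, so its direction is no independent evidence. Of 11 measured, 10 were at least 1 log2 unit higher, with a median of 2.04 in clone 1 and 3.30 in clone 2. Zfp981 was at 4.86 for MOCK, 4.95 for WT, 8.40 for clone 1 and 10.06 for clone 2, Zfp980 at 10.79, 10.66, 13.47 and 14.77, and Zfp600 at 10.50, 10.99, 13.38 and 14.43. These genes are near copies of each other, and signals of 1 may come in part from another. None of 24 genes for DNA methylation and KRAB silencing, which act on such clusters, was a member, and few would be at the share over all genes. Dppa2, a germline and pluripotency gene, was at 5.71, 6.45, 7.25 and 12.84, with 1 higher and 1 lower in that list of 30.

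Promoters with few CpG pairs were more frequent among genes off the controls than among all genes above background. Higher genes can pass the background level through clone 1 alone, which lets in genes dim in the controls. Among genes above background in either clone 1 or the control mean, the promoters held a median of 23 CpG pairs per 300 bases, and 5.34% held 5 or fewer. Among those at least 1 log2 unit higher the median was 19 and the share 18.2%, and among those at least 2 units higher, 63 of which had a promoter, 7 and 42.9%. Lower genes had a median of 21 and a share of 11.2%, and those at least 2 units lower, 19 of which had a promoter, 18 and 21.1%. Genes dim in the controls are poor in CpG pairs in any case: over all genes whose control mean was under the negative-control median, the promoters held a median of 5 and the share was 51.7%. Among the 29 of these genes that were above background in clone 1, 18 had a promoter. Their median was 7.5 and their share 44.4%, so they were not poorer in CpG pairs than dim genes in general. What part of the difference dimness in the controls accounts for was not tested.

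Histone genes gave a few members and no shift. Of 58 measured, 5 were higher and 0 lower, and the median was 0.003. H1f2, a linker histone, was at 7.57 for MOCK, 9.35 for WT, 11.48 for clone 1 and 7.58 for clone 2, and H2bc4 at 11.34, 11.63, 13.70 and 10.29. In both, clone 1 was the highest array, and clone 2 lay beside MOCK for H1f2 and below both controls for H2bc4. The 9 RNA quality genes had 0 members, with a median of -0.02 in clone 1, 0.31 in clone 2 and 0.30 for MOCK minus WT.

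Part of the difference followed position along chromosomes. Genes whose mean signal over the arrays was above background, 8538 in all, were ordered along each chromosome by the RefSeq gene table, and a running median of the difference was taken over 21 neighbours. Stretches of at least 15 genes with a running median of at least 0.5 in size were listed, a rule set after the values were seen. They held 178 genes (2.08% of the 8538) where clone 1 was higher and 172 (2.01%) where it was lower. Of the 353 higher members in this set, 68 (19.3%) lay in the higher stretches and 1 in the lower ones. Of the 275 lower members, 52 (18.9%) lay in the lower stretches and 0 in the higher ones. Since the stretches were found from the same values, these shares are a description. DNA was not measured, so gains and losses of chromosome pieces were not tested.

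The longest higher stretch on chromosome 4 ran over 60 genes from C9orf72 to Invs. Its median was 1.12 in clone 1, 0.67 in clone 2 and 0.01 for MOCK minus WT, and 34 of its genes were members. It holds several genes of sugar metabolism and glycosylation: Galt, an enzyme of galactose use, was at 6.07 for MOCK, 5.73 for WT, 8.62 for clone 1 and 7.13 for clone 2, Nans, which makes sialic acid, at 10.70, 11.10, 12.72 and 11.58, and Gne, which starts sialic acid synthesis, at 10.23, 9.86, 11.40 and 11.55. B4galt1, Alg2, Tgfbr1 and Ddx58 lie in it as well. Both clones were above both controls for all 7 genes. Members of other functions lie in it too, such as Smu1, a splicing factor, at 10.24, 10.11, 11.90 and 11.15. Vcp, an ATPase that extracts proteins for degradation, was at 12.01, 12.49, 13.39 and 12.81. Why genes of this stretch were higher was not tested.

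On chromosome 5 a stretch of 66 genes from Tmed2 to Slc12a9 had a median of 0.67 in clone 1, -0.11 in clone 2 and -0.28 for MOCK minus WT. It holds 12 members. Psph, the last enzyme of serine synthesis, was at 10.80, 10.84, 12.38 and 11.10, and Mdh2, mitochondrial malate dehydrogenase, at 14.22, 14.09, 15.23 and 13.84. Shorter higher stretches lay on chromosome 10 (Gcc2 to Pald1, 18 genes, median 0.54) and chromosome 15 (Grasp to Prr13, 16 genes, median 0.63). On the X chromosome, 18 genes from Wdr44 to Dock11 had a median of 2.14 in clone 1, 1.76 in clone 2 and 0.63 for MOCK minus WT, and 15 of them were members. Most are predicted genes that are close copies of Slx, a gene of male germ cells, so they may share signal. Gm5169 was at 7.12, 7.05, 10.04 and 9.23, and Slx itself at 6.25, 6.67, 7.64 and 8.63.

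The lower stretches include several of the genes named above. On chromosome 14 the rule gave a stretch of 25 genes from Bora to Farp1, with 14 members. Taken beyond the rule, to the last gene of that chromosome in the order, 33 of 35 genes were below the control mean and 20 were members. The median over the 35 was -1.10 in clone 1 and 0.74 in clone 2. Uchl3, a deubiquitinase, was at 11.82 for MOCK, 11.66 for WT, 9.55 for clone 1 and 12.13 for clone 2, Stk24, a kinase, at 11.12, 11.40, 9.09 and 11.52, and Mbnl2, a splicing regulator, at 12.82, 12.82, 10.90 and 14.22. Spry2 and Dnajc3 lie among them. On chromosome 12, 60 genes from Spata7 to Cdca4 had a median of -0.84 in clone 1 and -0.23 in clone 2, with 21 members. Fbln5 is 1 of these, as is Dicer1, which cuts microRNA precursors, at 9.37, 9.30, 8.19 and 8.33. On chromosome 10, 71 genes from Utp20 to Xpot had a median of -0.65 and -0.24, and Dcn, Nav3, Phlda1 and Glipr1 are among its members. A stretch of 16 genes on chromosome 4, Rab2a to Pip4p2, had a median of -0.67.

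A short run on chromosome 2 was too small for the rule and was seen afterwards. Mapkap1, a subunit of mTORC2, was at 9.81 for MOCK, 10.36 for WT, 7.92 for clone 1 and 9.72 for clone 2. Its neighbour Gapvd1, a regulator of endocytosis, was at 10.43, 9.98, 7.31 and 10.19. Hspa5 comes next in the order, followed by Rabepk at 9.68, 9.43, 7.85 and 9.61, Fbxw2 at 9.43, 9.19, 7.61 and 9.11, and Psmd5, an assembly chaperone of the proteasome, at 12.13, 11.58, 9.40 and 11.14. For the 5 genes around Hspa5 clone 1 was 1.71 to 2.90 below the controls, while Hspa5 was 0.23 below them, and clone 2 stayed within 0.72 of the controls for each of the 5.

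**Figure D5:**
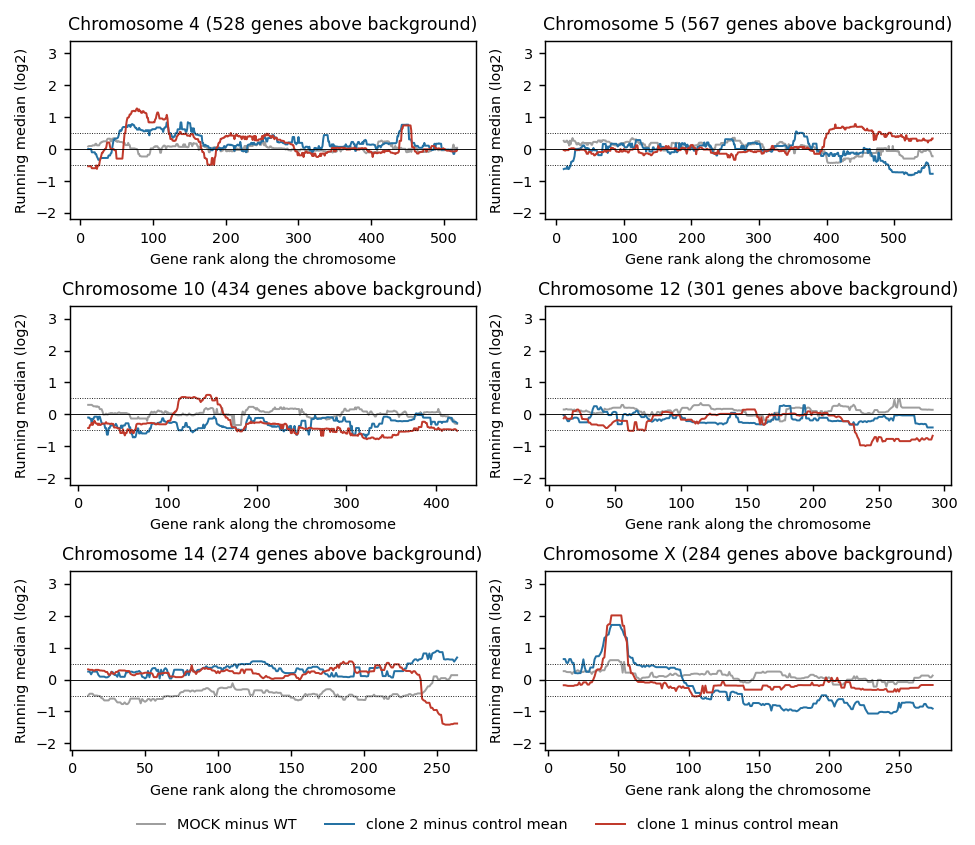
Running median over 21 neighbouring genes (y axis, log2) against the gene's rank along each of 6 chromosomes (x axis), for clone 1 minus the control mean (red), clone 2 minus the control mean (blue) and MOCK minus WT (grey). Dotted lines mark 0.5 above and below 0. On chromosome 12 and at the end of chromosome 14 only the red line drops below -0.5, and on chromosomes 4 and X both clones pass 0.5 in the same stretch.

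At the threshold itself, Herpud1 (an ER degradation factor) and Ado were just inside on the higher side and Gja6 and Angel1 just outside, all with a difference that rounds to 1.00. On the lower side Nampt and Ifit3 were just inside and Arsj and Evc just outside, by the same rounding. Herpud1 was at 13.42 for MOCK, 13.31 for WT, 14.37 for clone 1 and 15.08 for clone 2. Ifit3, an interferon-induced gene, was at 11.43, 13.17, 11.30 and 15.10, so MOCK and clone 1 lay within 0.2 of each other.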

How the data were processed

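Total RNA from MC38 cells was amplified, labelled with biotin and read on the Clariom S mouse array, 1 array per sample. The authors deposited 1 log2 signal per feature and array, made with the Transcriptome Analysis Console, per the submitters' processing notes; its version, normalization, summarisation and genome build were not given in the sources used here. Groups came from titles and design text, since a cell label names the knockout on all 4 samples. Of 28846 features, 6640 control features were left out and 22206 probe sets were quantile-normalized over the 4 arrays (Python 3.11.15, numpy 2.4.6, pandas 2.3.3). The platform's annotation gave 19572 probe sets 1 symbol, 0 several and 2634 none; for 55 genes with several probe sets the one with the highest mean was used. The procedure was tested on simulated data. The simulated shifts were larger than the threshold and placed in bright genes, so recovery of dim genes or smaller shifts was not tested. No test was made: clone 1 is 1 array, and the number of arrays limits the precision. Named genes were Mgat5, the 15 largest differences per direction, the 10 widest gaps, the 5 largest with clone 2 the other way, up to 5 members per gene list and the 2 nearest the threshold on each side, above background, and predicted genes were passed over. Genes named outside that rule were chosen after their values were seen. The members and 42 gene lists were chosen with earlier results of these data known. Chromosome order came from RefSeq GRCm38.p6; no coordinates of probe sets are given because the array's build is not stated. Alternatives covered the scaling, background filter, probe-set choice, control used and threshold.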

Additional observations from a re-analysis of the deposited data

Results flagged for a closer look

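Of the 51 members at which the clones lay on opposite sides of the controls, each by at least 1 log2 unit, 26 were higher and 25 lower in clone 1. The 5 per direction with the largest difference, among named genes above background, were Igf2 (4.31 in clone 1 and -3.26 in clone 2), Slc38a3 (2.77 and -1.31), Hcfc1r1 (2.37 and -2.82), H2bc4 (2.21 and -1.20) and Cavin2 (1.99 and -3.33), higher in clone 1. Lower in clone 1 were Pon3 (-3.79 and 1.95), Mmp2 (-2.47 and 1.82), Slfn8 (-2.17 and 1.28), Lif (-2.12 and 1.97) and Ebf1 (-1.97 and 4.70). The difference between the clones was not tested, since each is 1 array and both are set against the same controls. Slc38a3, an amino acid transporter, was above background in clone 1 alone, at 7.83 against 3.76 to 5.20 on the other arrays, and Cavin2, a coat protein of caveolae, was at 8.83 for MOCK, 9.22 for WT, 11.02 for clone 1 and 5.69 for clone 2.

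Among the 2634 probe sets without a gene name, which enter no comparison above, 124 were at least 1 log2 unit higher in clone 1 and 96 lower, and 72 of the higher ones were above background. What these probe sets measure was not analysed here.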

How the results depend on the processing

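Counts are for genes at least 1 log2 unit higher, at least 1 lower, the higher ones above all 3 other arrays and the lower ones below all 3, which were 746, 574, 593 and 506. They moved by over 1.5 times with the values as deposited for the higher count alone (1222), and the cause was not tested. Keeping genes with a mean above the median gave 440, 338, 335 and 296, keeping those with 1 side above the negative-control 75th percentile gave 448, 303, 347 and 262, and a threshold of 2 log2 units gave 87, 34, 68 and 30. With 1 control left out the counts ranged from 883 to 942, 790 to 823, 693 to 757 and 656 to 679. Centring on medians, keeping control features, leaving clone 2 out of the quantile step or averaging probe sets kept each count it could give within 1.5 times; the last 2 counts have no value without clone 2. Of 125 named members, 88 stayed at least 1 log2 unit off under every alternative and 0 changed sign; Mgat5 fell short as deposited, with median centring and against MOCK alone. The ER list's median ranged from 0.40 to 0.91 and the ATF4 list's from 0.34 to 0.90, while 29 of 42 lists had a median that changed sign. Dim genes are limited by signal over background: 569 members had no side above it.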

Other observations

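Genes outside the lists and the naming rule, picked after their values were seen, give further detail on clone 1. Eomes, a transcription factor of early embryo and lymphoid cells, was at 5.94 for MOCK, 6.72 for WT, 8.67 for clone 1 and 5.72 for clone 2, and Mef2c, one of muscle and neurons, at 6.36, 8.53, 9.86 and 9.42, with clone 1 the highest array in each. Pim1, a survival kinase, was at 6.48, 6.80, 9.25 and 7.72, and Gadd45a, a stress gene, at 8.80, 8.32, 10.28 and 10.27; both clones lay above both controls for the pair. Tinagl1, a matrix protein of basement membranes, was at 8.97, 10.12, 12.46 and 8.68, high in clone 1 alone. Txnip, an inhibitor of thioredoxin and glucose uptake, was at 10.92, 11.06, 9.31 and 14.64, the lowest array in clone 1 and the highest in clone 2. Cp, the copper carrier ceruloplasmin, was at 8.44, 9.63, 7.20 and 10.78, in the same order of arrays.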
